A study of Mus musculus with 24 samples.

Results

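The 34 genes described here encode the proteins with which Schwann cells build and hold peripheral myelin, the enzymes that make its lipids, the regulators that switch the program on, and a general Schwann cell marker. They were taken by name from a list of Schwann cell and peripheral myelin genes, and all 34 matched a row among the 37620 genes of the expression table. The table covers whole dorsal root ganglia (DRG), which hold the cell bodies of sensory neurons with the glia that ensheathe them, from wild-type adult C57Bl/6 mice aged 6 to 8 weeks, with no treatment. Lumbar ganglia were L4-5 and sacral ganglia were L6-S1, and the nerve roots were removed before RNA was extracted from both. There were 5 lumbar and 5 sacral samples from 5 male mice, and 7 lumbar and 7 sacral samples from female mice. The female samples carry 8 different mouse numbers in the labels, while the paper counts 7 female mice. Ganglia that share a number were read as coming from the same mouse, and on that reading 11 mice gave both levels. All 10 male samples and 9 of the female samples belonged to batch 2, and 5 female samples belonged to batch 1, and the batches came from separate facilities. The unit throughout is log2 RPKM, that is, read density per length of transcript scaled to library depth, so each whole step up or down multiplies or divides the level by 2.

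A myelinating Schwann cell wraps its membrane around 1 segment of a large axon and compacts it into myelin. Compact myelin is held together by small membrane proteins and is rich in cholesterol and galactolipids, while uncompacted channels, junctions and a dystrophin-related complex at the outer surface keep the cell connected to its axon and its basal lamina. The transcription factor SOX10 acts throughout the Schwann cell lineage, POU3F1 acts in the promyelinating cell, and EGR2, also called Krox20, drives and maintains myelin gene expression. Axonal neuregulin, read by the ERBB2 and ERBB3 receptors, controls how much myelin is made. In the DRG the Schwann cells lie along the axons that run through the ganglion, beside neuronal cell bodies that are covered by satellite glia, which share SOX10 and S100B with them.

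Of the 34 genes, 31 passed the filter on low values, which asked for a mean log2 RPKM of 0 or more in any of the 4 combinations of level and sex. Gjb1, Pou3f1 and Sh3tc2 did not pass and were not tested. Mag and Gal3st1 passed only through lumbar groups, so a difference in them was favored by the filter, and counts over the 31 genes are descriptions. Library sizes, recovered from the scale of the table, were 27.6 to 44.6 M reads, and the share of signal in mitochondrial transcripts was 26.0 to 43.4%. Among 11 mice this share differed between levels by 1.74 percentage points ± 9.04 (SD, n = 11; exact two-sided sign-flip permutation p = 0.530). The listed oligodendrocyte genes, which would mark central myelin, were near 0 in 23 of the 24 libraries, with a summed level of at most 1.06 RPKM. The lumbar sample of female mouse 22 stood apart with 17.01 RPKM, made mostly of Mobp at a log2 RPKM of 3.43 and Mog at 1.75. Without that library, 14 of the members called below passed the test in place of 15, and the fall of Mbp, which central myelin also uses, was -1.20 in place of -1.22. In these whole ganglia, fewer cells of a type and less RNA per cell cannot be told apart.

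In sacral ganglia, 15 of the 31 tested genes were lower than in lumbar ganglia and none was higher, at a Benjamini-Hochberg adjusted p of 0.05 or less over all 12650 genes tested with limma. Of all genes tested, 1.29% were called lower in the same comparison. The 15 were the structural genes Mbp, Pmp22, Prx, Mal, Gjc3, Cldn19, Pmp2, Drp2 and Cnp, the lipid enzymes Fa2h and Ugt8a, the signaling genes Lgi4, Dhh and Dusp15, and Ndrg1. The fitted change was below 0 for 29 of the 31 genes, with a median of -0.77, whereas over all genes tested 48.3% were below 0 and the median was 0.0097. The 16 genes not called included both tested transcription factors and both neuregulin receptors.

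Levels differed widely between the genes. In lumbar ganglia Pmp22 stood highest at a mean log2 RPKM of 11.51 ± 0.35 (SD, n = 12). Mbp followed at 6.96 ± 0.36 and S100b at 6.65 ± 0.14, which is within 1 SD of Mbp. Mal, at 5.99 ± 0.32, and Cd9, at 5.93 ± 0.22, did not differ beyond their spread. Ugt8a stood at 5.43 ± 0.47 and Cldn19 at 3.74 ± 0.69, with Pllp, Cadm4 and Aspa below them. Mag, at 0.41 ± 0.86, and Gal3st1, at 0.23 ± 0.79, were close to the filter. Over all 24 samples the median estimated count was 88.6 reads for Mag. The lowest counts were in sacral samples, at 4.32 reads for Mag, and at none in 1 sample and 3.81 in the next lowest for Gal3st1, against at least 10330 for Mbp.

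Mbp encodes myelin basic protein, which seals the inner faces of the compact myelin membrane. Its lumbar level ranged from 6.41 to 7.55 with a median of 6.95, and its sacral level from 5.20 to 6.60 with a median of 5.80. Only the sacral sample of female mouse 12 of batch 1 reached into the lumbar range. The fitted change was -1.22 ± 0.155 (SE), a level 2.34-fold lower in sacral ganglia (limma, adjusted p = 3.8e-05). Mbp was lower in the sacral ganglia of 11 of the 11 mice, by 0.05 in female mouse 12 of batch 1 and by up to 1.97 in female mouse 21.

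Pmp22 encodes the peripheral myelin protein whose gene dose is altered in inherited neuropathy. Lumbar samples ranged from 10.86 to 12.06 and sacral samples from 9.89 to 11.16, so the levels overlapped. The change was -0.94 ± 0.149 (adjusted p = 0.000376), and Pmp22 was lower in 11 of 11 mice. In male mouse 14 and female mouse 19 the difference was small, at -0.03 and -0.06. Mal, a raft protein that carries myelin components to the membrane, ranged from 5.36 to 6.49 in lumbar and from 4.42 to 5.70 in sacral samples. It changed by -0.97 ± 0.152 (adjusted p = 0.000307) and was also lower in 11 of 11 mice.

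Drp2, which encodes the dystrophin-related protein that anchors the outer Schwann cell membrane together with periaxin, was the 1 member whose levels did not overlap at all. Lumbar samples lay between 4.77 and 5.85 with a median of 5.09, and sacral samples between 3.58 and 4.70 with a median of 4.11. Every sacral value was below every lumbar value. That pattern held for 0.0711% of all genes tested. The change was -1.08 ± 0.166 (adjusted p = 0.000265). Prx, which encodes periaxin itself, ranged from 3.90 to 5.50 in lumbar and from 1.86 to 4.05 in sacral samples, with a change of -1.30 ± 0.238 (adjusted p = 0.00219). It was lower in 10 of 11 mice, and in female mouse 22 it was 0.07 higher in the sacral ganglia.

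**Figure D1:**
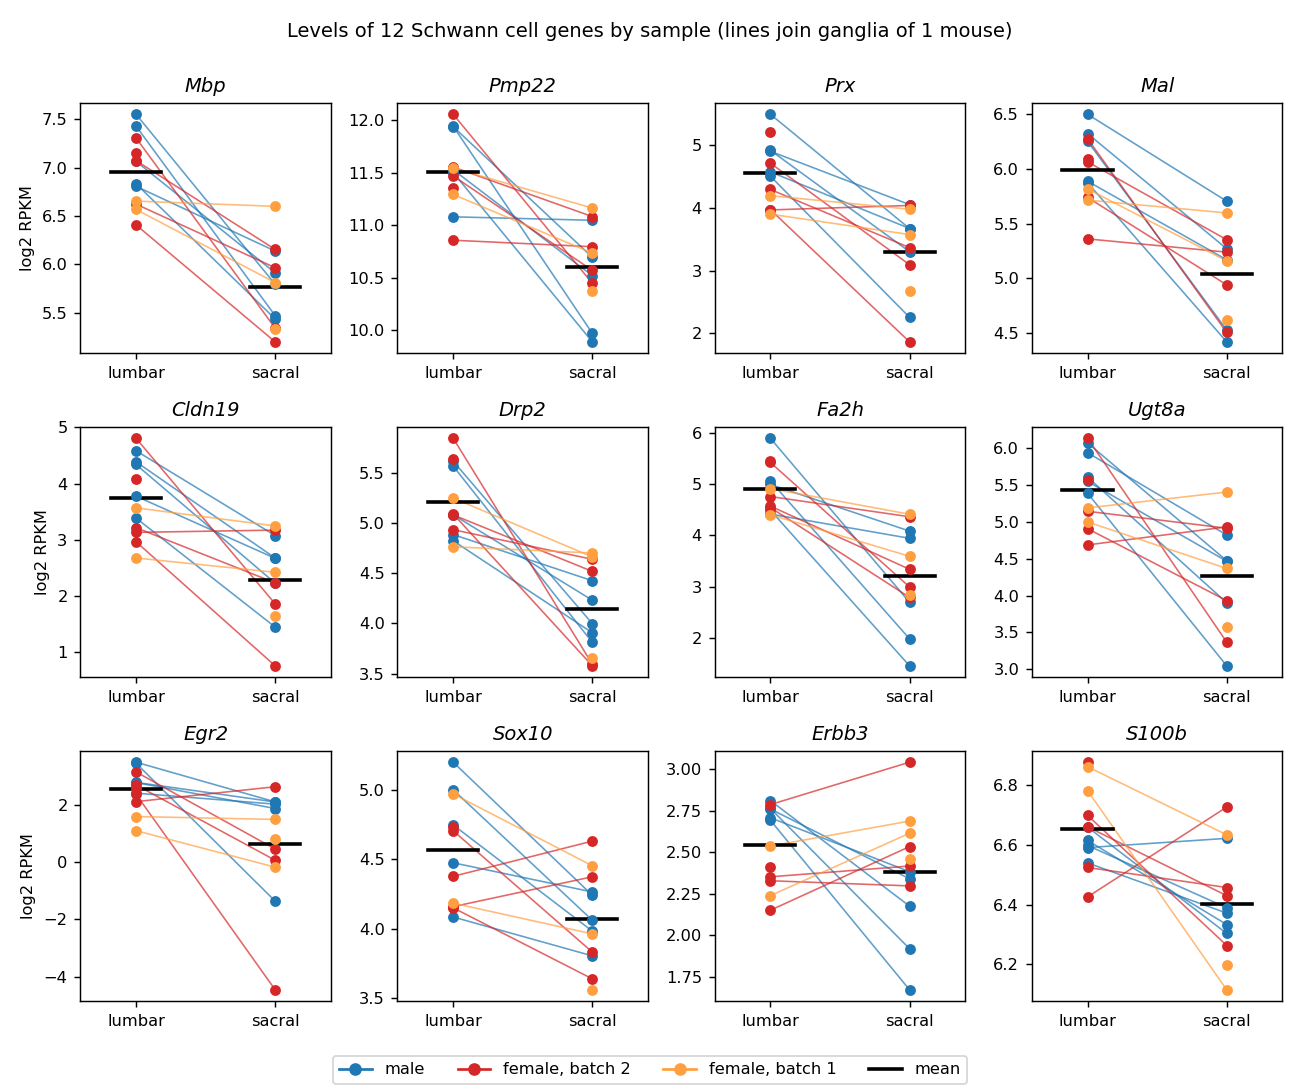
Log2 RPKM of 12 of the genes in each of the 24 samples, lumbar at left and sacral at right of each panel, with lines joining the ganglia of 1 mouse, colors for sex and batch, and black bars for the mean of 12 samples. The Drp2 values of the levels are separate, those of Mbp overlap by 1 sacral sample, and the Erbb3 lines fall in males and mostly do not in females.

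Cldn19, the claudin of the tight junctions within Schwann cell membranes, had the largest fitted change among the called structural genes. It ranged from 2.67 to 4.81 in lumbar and from 0.75 to 3.25 in sacral samples and changed by -1.49 ± 0.281 (adjusted p = 0.00287), a level 2.81-fold lower. Of the 12 sacral samples, 9 were below the lowest lumbar sample. Pmp2, a fatty acid binding protein of compact myelin, changed by -1.08 ± 0.279 (adjusted p = 0.0348), and Gjc3, the connexin 29 gene, by -0.88 ± 0.238 (adjusted p = 0.0478). Both stood near the threshold, and leaving out 1 sample ended the call of Pmp2 for 10 and of Gjc3 for 18 of the 24 samples. Cnp, which encodes an enzyme that keeps channels of cytoplasm open in myelin, changed by -0.52 ± 0.118 (adjusted p = 0.0144).

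The other 5 tested structural genes were not called. Mag, the adhesion protein that faces the axon, was -1.40 ± 0.471 (adjusted p = 0.125), and its sacral values spread from -4.47 to 0.97. Pllp, plasmolipin, was -1.13 ± 0.399 (adjusted p = 0.152), with 2 male and no female mice going the other way. Cadm4, the Schwann cell partner of axonal nectin-like adhesion proteins, was -0.64 ± 0.25 (adjusted p = 0.208). Cdh1, E-cadherin of the autotypic junctions, was -0.09 (95% interval -0.31 to 0.14). Cd9, a tetraspanin found on Schwann cells and on many other cells, was 0.24 ± 0.0987 (adjusted p = 0.236) and was higher in the sacral ganglia of 8 of 11 mice. Gjb1, the connexin 32 gene, ranged from -3.09 to 1.94 in lumbar samples. The 1.94 came from lumbar female 22, the library that stood apart in oligodendrocyte genes. The other lumbar samples were at most 0.49. In sacral samples Gjb1 had no reads in 4 and was at most 1.06 in the others. On the log2(RPKM + 1) scale, which damps low values, the change was -0.59 for Mag and -0.84 for Pllp, against -1.04 for Drp2.

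The lipid genes were split. Fa2h, which adds the hydroxyl group of the 2-hydroxylated myelin galactolipids, showed the largest change of any called member. Its level ranged from 4.40 to 5.89 in lumbar samples, median 4.84, and from 1.46 to 4.41 in sacral samples, median 3.17. A single sacral sample, from female mouse 12 of batch 1, was within the lumbar range. The change was -1.76 ± 0.282, a level 3.40-fold lower (adjusted p = 0.0004), and it was lower in 11 of 11 mice. Ugt8a, the transferase that makes galactosylceramide, ranged from 4.69 to 6.14 in lumbar and from 3.04 to 5.41 in sacral samples. It changed by -1.23 ± 0.232 (adjusted p = 0.00287) and was lower in 9 of 11 mice. Gal3st1, the sulfotransferase that turns galactosylceramide into sulfatide, had a fitted change of -2.21 ± 0.734 and was not called (adjusted p = 0.120). That value depended on how low values were treated, and was -0.61 on the log2(RPKM + 1) scale, where Fa2h stayed at -1.63. Its sacral samples ran from no reads in 1 sample and -4.39 in the next lowest to 0.64. Aspa, which releases acetate from N-acetylaspartate, differed by 0.14 (95% interval -0.22 to 0.51) and was higher in sacral ganglia of 7 of 11 mice.

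**Figure D2:**
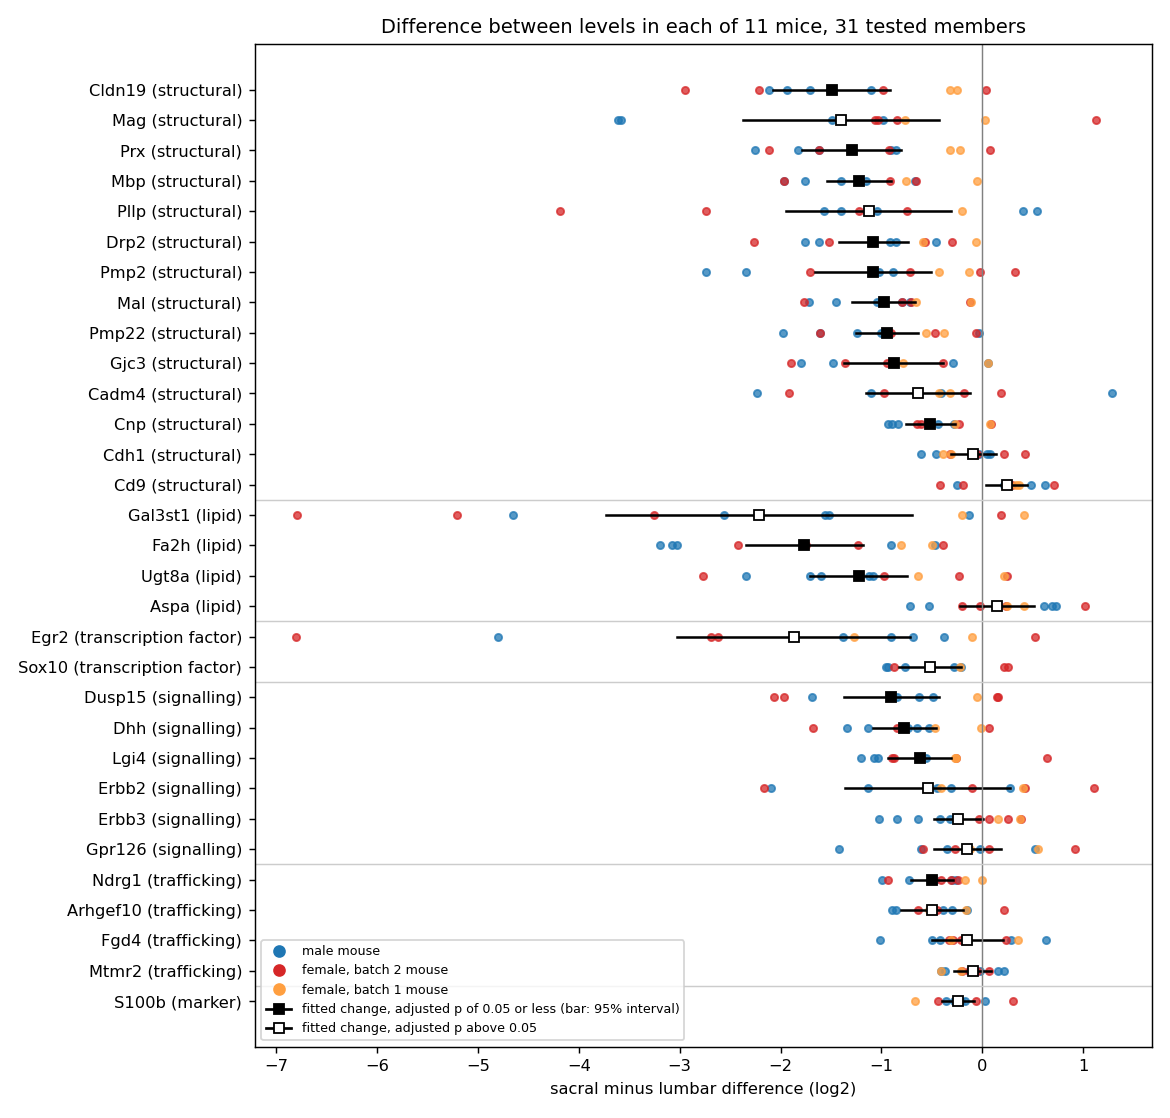
Sacral minus lumbar difference on the log2 scale for the 31 tested genes, ordered by role, with a colored point for each of 11 mice and a black square with its 95% interval for the fitted change over all 24 samples, filled where the adjusted p was 0.05 or less. The 15 filled squares all lie to the left of 0, and the points of Egr2, Gal3st1 and Mag are spread much more widely than those of Mbp or Ndrg1.

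The tested regulators had fitted changes below 0 that did not pass the test on the log2 RPKM scale. Egr2 ranged from 1.09 to 3.47 in lumbar samples, median 2.63, and from -4.45 to 2.62 in sacral samples, median 1.14. Its lowest value, in sacral female mouse 23, stood for an estimated 5.88 reads. The fitted change was -1.87 ± 0.561 with an adjusted p of 0.0783, and Egr2 was lower in 10 of 11 mice. On the log2(RPKM + 1) scale it was -1.15 and called (adjusted p = 0.0147), and on the log2(RPKM + 0.1) scale -1.68 and called (adjusted p = 0.0446). It was also called without sacral female 22 (-2.12, adjusted p = 0.0304) or without sacral female 23 (-1.41, adjusted p = 0.0479). Sox10 ranged from 4.09 to 5.20 in lumbar and from 3.56 to 4.63 in sacral samples, with a change of -0.52 ± 0.148 (adjusted p = 0.0631). It was called with the mitochondrial share as a covariate (adjusted p = 0.0473), and without lumbar male 14 (adjusted p = 0.0224), sacral female 22 (adjusted p = 0.0304) or sacral female 12 of batch 1 (adjusted p = 0.0462). Pou3f1 was nearly silent: it had no reads in 1 sample of each level, and its median was -2.54 in lumbar and -3.00 in sacral samples. Its reads cannot be told apart from those of a pseudogene entry on the same strand, which covers 3003 of its 3004 bases.

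Among the signaling genes, Dhh, Dusp15 and Lgi4 fell. Dhh, desert hedgehog, is sent by Schwann cells to organize the perineurium, and it ranged from 3.83 to 5.01 in lumbar and from 2.97 to 4.05 in sacral samples. Its change was -0.77 ± 0.152 (adjusted p = 0.00404). Dusp15, a phosphatase gene, changed by -0.90 ± 0.227 (adjusted p = 0.0300), and Lgi4, the secreted ligand that Schwann cells need for axonal sorting, by -0.62 ± 0.152 (adjusted p = 0.0251). When each of the 11 paired mice had its own term in the model (a fixed mouse block), neither Dusp15 (adjusted p = 0.103) nor Lgi4 (adjusted p = 0.163) was called. Lgi4 shares 2059 bases, 44.9% of its exon length, with Fxyd3 on the opposite strand, and the library kit does not mark strand. The receptor genes Erbb2, -0.54 ± 0.396, and Erbb3, -0.24 ± 0.117, were not called (adjusted p = 0.596 and 0.365). Gpr126, the adhesion receptor that starts myelination, was -0.15 (95% interval -0.48 to 0.18).

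Of the trafficking genes that are mutated in inherited demyelinating neuropathy, Ndrg1 fell. It ranged from 4.64 to 5.40 in lumbar and from 4.31 to 4.79 in sacral samples and changed by -0.50 ± 0.101 (adjusted p = 0.00527), lower in 11 of 11 mice. Mbp, Pmp22, Mal, Drp2, Fa2h and Ndrg1 (6 members) were lower in all 11 mice, a pattern that 0.538% of all genes tested had. Arhgef10, a guanine nucleotide exchange factor gene, was -0.50 ± 0.148 (adjusted p = 0.0754), and was called without sacral female 21 (adjusted p = 0.0321). The phosphatase gene Mtmr2 was -0.09 (95% interval -0.28 to 0.09) and Fgd4, which encodes frabin, was -0.15 (95% interval -0.50 to 0.20). Sh3tc2 was at or below 0.92 in every sample. S100b, the calcium-binding marker that Schwann and satellite cells share, was not called, at -0.24 ± 0.0753 (adjusted p = 0.0893), between a lumbar range of 6.43 to 6.88 and a sacral range of 6.11 to 6.73, and was called after quantile normalisation (adjusted p = 0.0232) or without sacral female 22 (adjusted p = 0.0418).

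By role, 9 of 14 tested structural genes were called, with a median change of -1.03. Of the lipid genes 2 of 4 were called, median -1.50, and of the signaling genes 3 of 6, median -0.58. The trafficking genes had 1 call among 4, median -0.32, and the transcription factors no call among 2, median -1.19. The lipid median takes in Gal3st1, and the transcription factor median Egr2, whose changes were smaller on the log2(RPKM + 1) scale, as given above. Each role held members with no call.

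The promoters of some of these genes are shown because the genes moved together and because EGR2 and SOX10 act on myelin genes. Of the 34 genes, 21 had RefSeq promoter windows in build GRCm38.p6, 40 windows in all, and windows of the same gene can overlap. The deposited table uses mm9, so these coordinates belong to the RefSeq windows alone. The 250 bases before the start are given 5′ to 3′ on the strand of the gene for 4 called structural genes, at chr7:27499074-27499323 (plus strand) for Prx, chr2:127656696-127656945 (minus strand) for Mal, chr4:119255191-119255440 (plus strand) for Cldn19 and chr11:100574689-100574938 (plus strand) for Cnp, and for Egr2 at chr10:67535249-67535498 (plus strand). Capitals mark a SOX core (ACAAAG), an EGR core (GTGGGCG) or a TATA box (TATAAA) on either strand.
Prx: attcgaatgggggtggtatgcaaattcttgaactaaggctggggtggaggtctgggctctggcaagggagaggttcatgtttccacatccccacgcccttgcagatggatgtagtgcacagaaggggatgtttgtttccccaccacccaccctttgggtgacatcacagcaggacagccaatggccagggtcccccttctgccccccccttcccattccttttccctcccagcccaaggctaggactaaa
Mal: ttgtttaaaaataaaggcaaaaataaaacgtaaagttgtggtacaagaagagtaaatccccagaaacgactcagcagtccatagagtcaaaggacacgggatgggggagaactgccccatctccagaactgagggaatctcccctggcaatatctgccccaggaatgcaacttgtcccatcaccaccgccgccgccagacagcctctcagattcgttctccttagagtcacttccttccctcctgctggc
Cldn19: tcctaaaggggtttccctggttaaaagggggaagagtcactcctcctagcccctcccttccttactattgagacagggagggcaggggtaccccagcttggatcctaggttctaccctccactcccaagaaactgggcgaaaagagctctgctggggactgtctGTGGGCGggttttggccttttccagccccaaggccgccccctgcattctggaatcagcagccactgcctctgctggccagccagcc
Cnp: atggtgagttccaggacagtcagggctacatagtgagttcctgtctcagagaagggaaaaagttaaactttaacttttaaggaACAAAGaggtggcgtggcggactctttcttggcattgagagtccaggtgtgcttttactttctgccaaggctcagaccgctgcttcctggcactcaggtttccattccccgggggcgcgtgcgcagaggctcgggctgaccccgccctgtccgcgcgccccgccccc
Egr2: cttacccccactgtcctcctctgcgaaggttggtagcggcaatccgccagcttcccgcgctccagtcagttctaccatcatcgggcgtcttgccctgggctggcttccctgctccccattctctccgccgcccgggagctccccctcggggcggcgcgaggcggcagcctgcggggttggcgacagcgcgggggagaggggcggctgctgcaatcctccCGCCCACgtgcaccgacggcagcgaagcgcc

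The Cldn19 window held an EGR core that begins 86 bases before the start, the Cnp window a SOX core 167 bases before it, and the Egr2 window shown an EGR core on the opposite strand 31 bases before it. Egr2 has 5 windows in the table, and the other 4 held none of the motifs. Of the 8 called genes with windows, Cldn19 held the EGR core, Cnp the SOX core and none the TATA box, while the windows of Prx, Mal, Pmp22, Gjc3, Ugt8a and Dhh held none of the 3 motifs. Over the whole windows, which also take in 50 bases after the start, the EGR core was in 6 of the 40 member windows and in 7.97% of the 32851 windows of all genes. The SOX core was in 8 of 40 against 18.7%, and the TATA box in 3 of 40 against 13.6%. These are letter matches only, and none of them is a measured binding site.

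In males alone, 6 genes were called lower, against 0.356% of all genes tested: Mbp, Pmp22, Mal, Drp2, Fa2h and Ugt8a. Mbp was 7.43, 6.83, 7.07, 6.81 and 7.55 in the lumbar and 5.47, 5.43, 5.91, 6.14 and 5.79 in the sacral samples of males 11 to 15. The male levels of Mbp did not overlap, and the change was -1.39 ± 0.236 (adjusted p = 0.0039). Fa2h was 5.06, 4.49, 4.99, 4.42 and 5.89 in lumbar and 1.99, 1.46, 4.09, 3.95 and 2.70 in sacral samples of the same males, a change of -2.14 ± 0.428 (adjusted p = 0.0140). Males 13 and 14 showed a smaller Fa2h difference than the other males. In 12 of the 34 genes, including Egr2, Erbb3 and Lgi4, all male sacral samples were below all male lumbar samples, which 1.31% of all genes tested showed. Under the fixed mouse block Pmp22 (adjusted p = 0.0677), Drp2 (adjusted p = 0.113) and Ugt8a (adjusted p = 0.0670) were no longer called in males, while Pmp2 (-1.61, adjusted p = 0.0309 in place of 0.0784) and Prx (-1.49, adjusted p = 0.0389 in place of 0.0534) were. Leaving out 1 sample gave 2 to 8 called members in males, with 2 without lumbar male 15 and 3 without lumbar male 13. Without lumbar male 15 the male calls of Fa2h (limma, adjusted p = 0.0616) and Mal (adjusted p = 0.0535) were lost. That of Mal was also lost without lumbar male 13 (adjusted p = 0.0542). Drp2 and Ugt8a also lost their calls without the filter (limma, adjusted p = 0.0859 and 0.0930) and without the variance trend (adjusted p = 0.0682 and 0.0676), and when 1 of the 10 male samples was left out, for 7 samples in Drp2 and 6 in Ugt8a. The mitochondrial share of the males was 30.3% in lumbar and 36.3% in sacral ganglia, higher in 4 of 5 mice (exact two-sided sign-flip permutation p = 0.188, where 5 pairs cannot go below 0.0625), and in the 6 paired females it was 34.2% and 32.4%. With this share as a covariate, the 6 members stayed called in males, and the median change of the members was -0.81.

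In females, Mbp and Drp2 were called lower, against 0.166% of all genes tested. Mbp had a lumbar range of 6.41 to 7.31, median 6.65, and a sacral range of 5.20 to 6.60, median 5.81, with a change of -1.06 ± 0.201 (adjusted p = 0.0120). Drp2 changed by -1.04 ± 0.216 (adjusted p = 0.0217) and was the 1 member whose female levels did not overlap, a pattern found in 0.213% of all genes tested. Under the fixed mouse block, which keeps 6 paired females, neither was called, at adjusted p = 0.142 for Mbp and 0.351 for Drp2. Leaving out 1 sample gave 0 to 3 called members in females, 0 without sacral female 23 and 1 without lumbar female 20, lumbar female 21, sacral female 21, and lumbar female 11 or sacral female 13 of batch 1. The median change over the tested members was -0.59 in females and -0.88 in males.

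The test of the difference between the sexes itself, the interaction of level and sex, called no member and no gene at all (percent called 0), while 582 of the 12650 genes and 1 of the 31 members had an unadjusted p under 0.05. That member was Erbb3. In males Erbb3 was 2.69 to 2.81 in lumbar and 1.67 to 2.38 in sacral samples, lower in 5 of 5 mice. In females it was 2.15 to 2.79 in lumbar and 2.30 to 3.04 in sacral samples, and it was lower in 1 of 6 mice, by 0.03. The change was -0.65 ± 0.178 in males and 0.18 ± 0.152 in females, and the difference of 0.83 ± 0.234 had an adjusted p of 0.973. Between the sexes at 1 level, no member was called either, against 0.0474% of all genes in lumbar and 0.0791% in sacral ganglia. At an unadjusted p under 0.05, 2 of the 31 members passed in each of these comparisons, against 7.39% of all genes in lumbar and 8.73% in sacral ganglia.

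Within mice the size of the difference varied from animal to animal. Over the 31 tested genes, the median difference was -1.13 in male mouse 11, -0.92 in male 12, -0.68 in male 13, -0.72 in male 14 and -0.96 in male 15. In the batch 2 females it was -0.27 in mouse 19, -1.06 in mouse 21, 0.06 in mouse 22 and -0.80 in mouse 23, and in batch 1 it was -0.32 in mouse 11 and -0.16 in mouse 12. In 9 mice at least 23 of the 31 genes were lower in the sacral ganglia, and 22 were in female mouse 12 of batch 1, where 61.2% of all genes tested were lower too. Female mouse 22 had 14 of 31 lower, close to the 42.0% of all genes, and all 6 of its signaling genes were higher in the sacral ganglia. Its lumbar library is the one with oligodendrocyte genes at 17.01 RPKM, and it had the highest mitochondrial share, 43.4%, against 30.6% in its sacral library. Over the 11 mice, 41.1 to 61.2% of all genes tested were lower. The median over all genes tested was between -0.16 and 0.16 in every mouse, at 0.12 in mouse 22 and -0.14 in mouse 12 of batch 1.

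**Figure D3:**
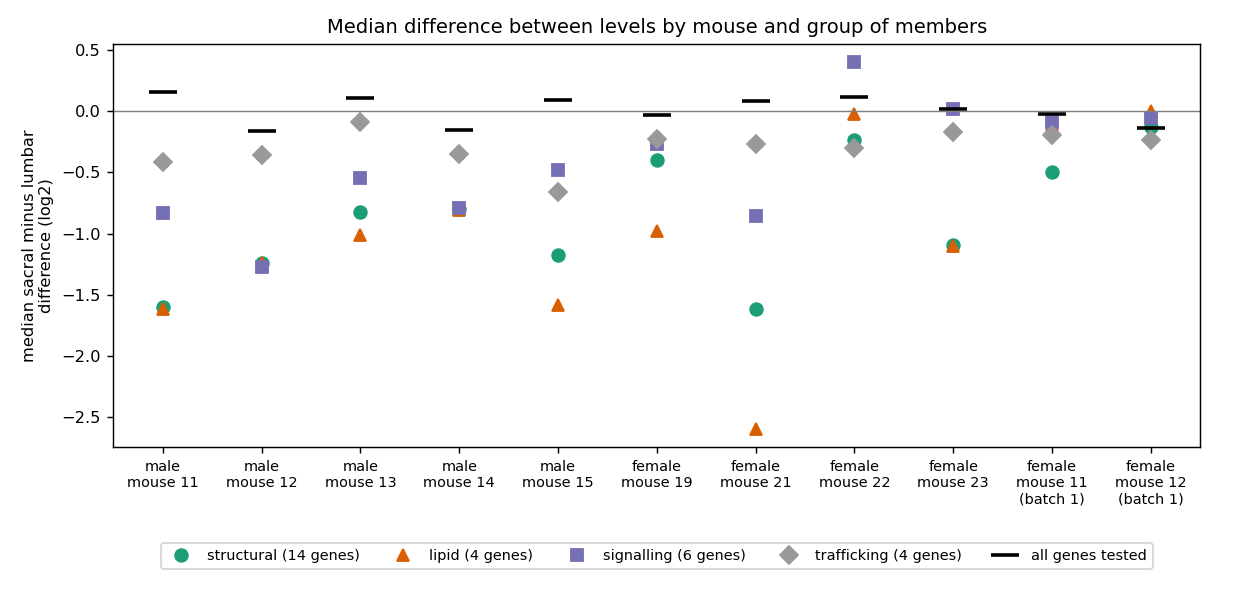
Median sacral minus lumbar difference, on the log2 scale, of the tested structural, lipid, signaling and trafficking genes in each of the 11 mice with both levels, with black dashes for the median of all genes tested. Structural medians run from -1.62 in female mouse 21 to -0.13 in female mouse 12 of batch 1, and trafficking medians stay closer to 0 in most mice.

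Levels cannot be compared between batches, because the batch means had been subtracted before the table was deposited, and for each member the remaining batch effect was 0. The difference between levels can be compared. In the 4 lumbar-sacral pairs and 1 unpaired lumbar sample of batch 2 females, 2 members were called lower, against 0.119% of all genes, and the median change was -0.56. In the 5 batch 1 samples no member was called, against 0.0158% of all genes called in either direction, while 3 of the 31 members and 2.18% of all genes had an unadjusted p under 0.05, and the median was -0.51. Mbp was 6.57 and 6.65 in the lumbar and 5.81, 6.60 and 5.33 in the sacral samples of batch 1, and the lowest value of that batch came from sacral female 13, which has no lumbar partner. In batch 2 females Mbp was 6.41 to 7.31 in lumbar and 5.20 to 6.15 in sacral samples, with no overlap.

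The interaction of level and batch in females called no member and no gene (percent called 0), with 419 genes and 1 member at an unadjusted p under 0.05. The member was Gal3st1, at 3.90 ± 1.88 (adjusted p = 1.00). It was -0.93 on average in lumbar and -0.74 in sacral samples of batch 1, and 0.37 and -3.34 in those of batch 2, where 1 sacral sample had no reads. By role, the median of this interaction was 0.43 for the structural, 0.44 for the lipid and 0.24 for the signaling genes, so the medians of these roles were smaller in size in batch 1. It was 0.03 for the trafficking genes, -0.34 for S100b, 0.99 for the 2 tested transcription factors and 0.26 over all 31 genes, of which 8 were below 0. With 2 lumbar and 3 sacral samples, batch 1 leaves wide errors, and a p above the threshold does not show that the batches acted alike. The median SD of the members was 0.19 in lumbar and 0.34 in sacral samples of batch 1, and 0.43 and 0.46 in batch 2, and over all genes tested it was 0.17 and 0.27 in batch 1 and 0.47 and 0.46 in batch 2.

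The structural genes also varied together within groups. After the 4 group means were subtracted, the median Pearson r between pairs of structural genes over 24 samples was 0.47, against 0.19 over all pairs of the 31 tested genes. It was 0.28 between structural and lipid genes, 0.40 between structural genes and the 2 tested transcription factors, and 0.14 between structural and signaling genes. Among the lipid genes themselves it was 0.13, among the signaling genes 0.21 and among the trafficking genes -0.12. The closest pairs were Prx with Cnp (r = 0.91), Mal with Ugt8a (r = 0.91) and Prx with Cldn19 (r = 0.90). The gene with the highest median r with the other 30 was Cnp (0.43), followed by Fa2h (0.40), and the lowest was Mtmr2 (-0.15). Prx had a median r of 0.37 with the other members and of -0.0015 with all genes tested. The points share their libraries and their scaling, so these values describe the samples and no more.

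**Figure D4:**
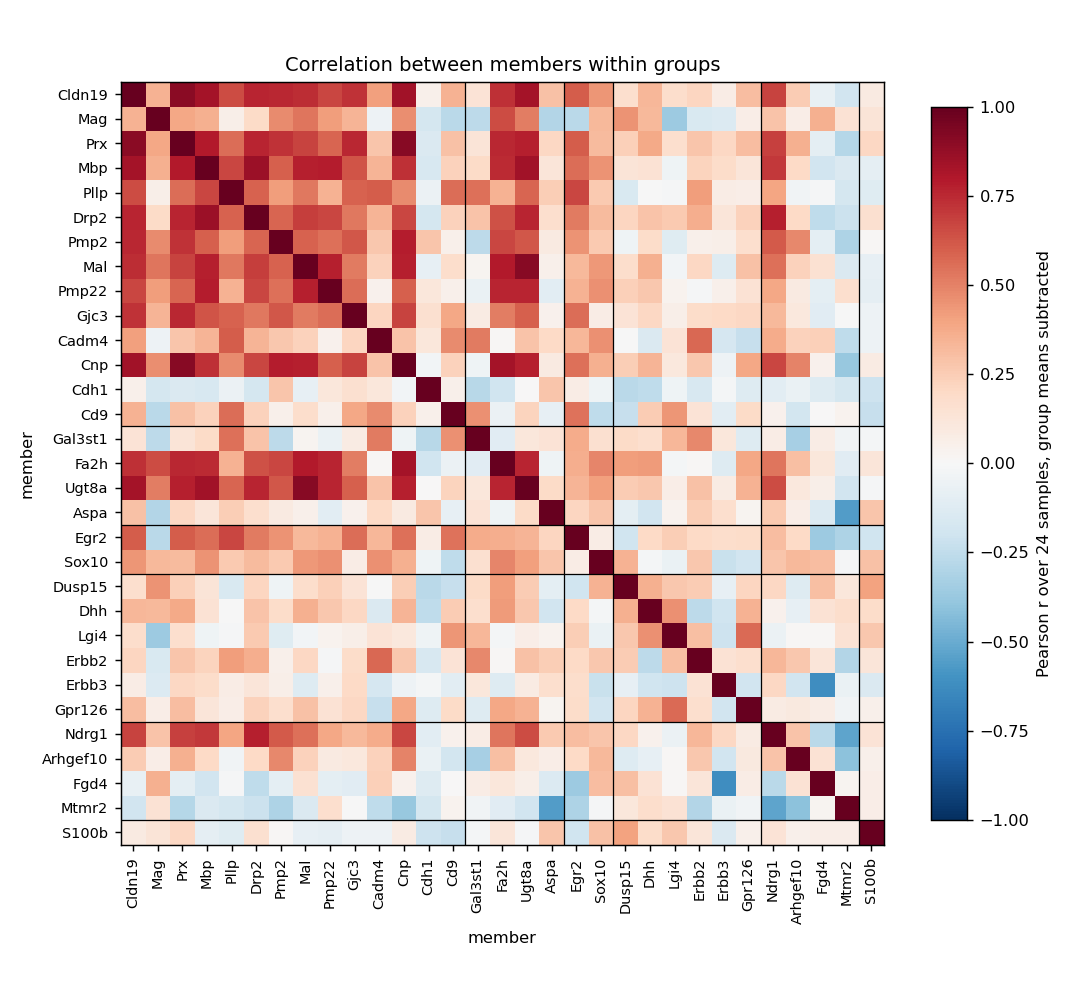
Pearson correlation over 24 samples between each pair of the 31 tested genes, after subtraction of the mean of each group of level and sex, ordered by role with black lines between roles. The block of structural genes is mostly red, with a median r of 0.47, while Cdh1, Mtmr2, Fgd4 and Erbb3 are pale or blue against most genes.

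Other genes of the same pathways were taken from lists that do not hold the members. Of 18 tested further peripheral myelin genes, 6 were lower and none higher, with a median of -0.27. Gldn, gliomedin of the node, changed by -0.98 ± 0.222, the RNA-binding protein gene Qk by -0.84 ± 0.113, and the integrin genes Itgb4 by -0.71 ± 0.170 and Itga6 by -0.68 ± 0.151. With mouse as a fixed block, Itgb4 and Itga6 were no longer called (limma, adjusted p = 0.0933 and 0.0758), and with batch 2 alone Gldn and Itgb4 were not (adjusted p = 0.0630 and 0.0595). The summed level of this list was 477 to 603 RPKM in lumbar and 355 to 486 RPKM in sacral samples, and the groups overlapped at their ends.

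Of 29 tested cholesterol and fatty acid synthesis genes, 2 were lower and none higher, and the median was -0.06. These 2 were Elovl1 (-0.91 ± 0.192, adjusted p = 0.00771) and Lass2 (-0.51 ± 0.131, adjusted p = 0.0316), which act in the synthesis of very long chain sphingolipids of myelin. Under the fixed mouse block neither was called (adjusted p = 0.0760 and 0.118), and leaving out 1 sample ended the call of Lass2 for 11 of the 24 samples. Among 14 node, paranode and juxtaparanode genes, Gldn and the potassium channel gene Kcna1 (-0.74 ± 0.108, adjusted p = 0.000165) were lower. Of 7 axonal signals to Schwann cells, Nrg1 was lower (-0.40 ± 0.105, adjusted p = 0.0419) and Cadm1 higher (0.34 ± 0.0865, adjusted p = 0.0297), where 1.15% of all genes were called higher. Both calls were lost under the fixed mouse block (adjusted p = 0.0922 and 0.164) and with batch 2 alone (adjusted p = 0.135 and 0.0550), and without 1 sample that of Nrg1 was lost for 16 and that of Cadm1 for 6 of the 24 samples. The 9 tested genes of non-myelinating and repair Schwann cells had a median of 0.17, with Ncam1 called higher (0.36 ± 0.0952, adjusted p = 0.0387). The call of Ncam1 was lost under the fixed mouse block (adjusted p = 0.146), with batch 2 alone (adjusted p = 0.0839), without the filter or the variance trend, and for 14 of the 24 samples left out.

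Markers of other cells moved with the members in part. Of 8 genes of large myelinated neurons, 5 were lower, among them Nefh (-0.64 ± 0.0896, adjusted p = 9.9e-05), and their summed level was 1633 to 2628 RPKM in lumbar and 1037 to 1848 in sacral samples. Of 10 genes of small unmyelinated neurons, 4 were higher, among them Trpv1 (1.22 ± 0.167, adjusted p = 7.4e-05), with sums of 712 to 1013 and 962 to 1478 RPKM. Both neuronal lists hold genes that the study named from these samples, so they are not independent evidence of direction. Of 12 satellite glial genes 1 was lower, Cdh19 (-0.60 ± 0.121, adjusted p = 0.00527), with a median of 0.02 and sums of 269 to 394 and 267 to 482 RPKM. Under the fixed mouse block Cdh19 was not called (adjusted p = 0.0525). No gene was called among 9 fibroblast and perineurial genes (sums of 248 to 483 and 206 to 580 RPKM), 5 endothelial genes (7.61 to 19.3 and 9.89 to 24.2 RPKM) or 5 macrophage genes (8.55 to 19.4 and 4.92 to 29.0 RPKM). The sums of the last 2 lists take in all 7 endothelial and 8 macrophage genes listed, tested or not. The part of the neuronal change in the result for the myelin genes was not tested.

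**Figure D5:**
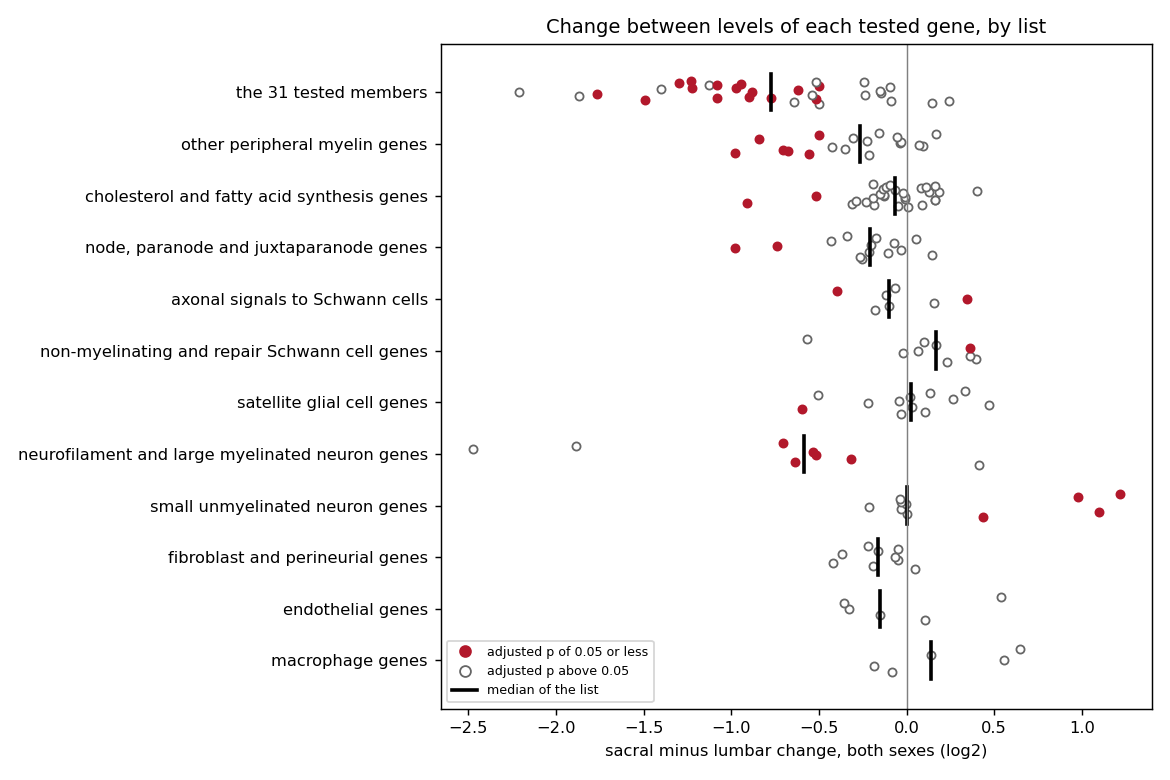
Fitted sacral minus lumbar change, both sexes, on the log2 scale, for each tested gene of the members and of the 11 other lists with tested genes, with filled red points at an adjusted p of 0.05 or less and a black bar at the median of each list. The 31 members have a median of -0.77, the further myelin genes -0.27, the cholesterol and fatty acid genes -0.06 and the satellite glial genes 0.02.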

How the data were processed

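RNA from 24 samples of adult DRG was sequenced. Per the study's methods and the submitters' processing notes, the authors aligned unique reads to mm9 with Subread 1.18 or later, counted Ensembl 67 genes with featureCounts, scaled counts with edgeR 3.12.1 and limma 3.26.9, and subtracted the batch effect. The deposited values are log2 RPKM for 37620 genes, and blank cells are genes without reads.

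Blanks were set to 0.5 reads, and 37205 genes were named from GENCODE M1. Genes with a mean log2 RPKM of at least 0 in at least 1 group (12650) were fitted in limma 3.58.1 under R 4.3.3 with 4 group means, a batch term, mouse as a random block and a trended variance, and p-values were adjusted over all of them by the Benjamini-Hochberg method. Changes are sacral minus lumbar unless stated. The block comes from the mouse numbers in the labels, which were read as marking ganglia of the same animal. Deviations of paired samples from their group means correlated at -0.22 to 0.04 over all genes, and the within-mouse correlation of the fit was -0.0174. Over the members alone these deviations correlated at -0.35, in female mouse 12 of batch 1, to 0.49, in male mouse 12. In simulated data with known changes, this fit recovered 67% of changes of 1 log2 unit and 94% of changes of 2 in the comparison of levels over both sexes.

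All 34 members are named. Of other lists, the up to 4 called genes with the largest changes are named, or the gene with the smallest p, and other genes named were chosen after their values were seen. Some genes are not reported here and were left out of the lists. The members and lists were chosen with earlier results of these data known. Motif searches used exact letters on both strands. Alternatives covered blocking, batch, filter, blanks, scaling, variance estimate, mitochondrial share and leaving out each sample.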

Additional observations from a re-analysis of the deposited data

Results flagged for a closer look

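Among 135 groups of a member and a level-and-sex group, 3 held a sample far from the others by Dixon's test, where chance gives about 1 in 20. Egr2 in the sacral sample of male mouse 11 was -1.364, while the other 4 sacral males lay between 1.86 and 2.09. Egr2 in the sacral sample of female mouse 23 was -4.449, and the other 6 sacral females lay between -0.18 and 2.62. S100b in the sacral sample of male mouse 11 was 6.622, above the 6.30 to 6.39 of the other 4 sacral males. Without sacral male 11 the change of Egr2 over both sexes stayed below 0 and was not called. Without sacral female 23 it was -1.41 and called (limma, adjusted p = 0.0479), against an adjusted p of 0.0783 with all samples.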

How the results depend on the processing

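No change over both sexes reversed for the 31 tested members or the other genes named with a change, under 15 processing alternatives (14 for Erbb2, Gal3st1 and Mag, which the stricter filter removed) or 24 fits without 1 sample. The count of called members stayed between 11 and 16 under the alternatives and between 12 and 18 without 1 sample, against 15. Without a filter, 12 of 34 members were called. Calls were lost with batch 2 alone for Gjc3, Pmp2, Lgi4 and Dusp15, and gained under at least 1 alternative for Egr2, Sox10 and S100b. In males 2 to 8 members were called without 1 sample, against 6. In females the count of 2 became 0 with mouse as a fixed replicate block, 1 without the filter, 1 without the variance trend, and 0 to 3 without 1 sample. The interaction of level and sex and both comparisons of the sexes had 0 called members in each fit without 1 sample, and the interaction of level and batch 0 without the block or with blanks left missing. The causes of these shifts were not tested.

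With mouse as a fixed replicate block in the 11 paired mice, 13 members were called over both sexes, 5 in males and 0 in females. All genes called fell from 309 to 157 over both sexes, from 82 to 51 in males and from 57 to 13 in females, with fewer samples and residual degrees of freedom. Without the block, 15, 7 and 2 members were called. With batch 2 alone 53 genes were called in males and 20 in females, and in females 30 without the filter and 35 without the trend. Between the sexes 10 sacral genes became 32 without the batch term, 16 on the log2(RPKM + 1) scale and 5 with blanks missing, and 6 lumbar genes became 3 with the stricter filter. The interaction of level and sex called 1 gene on the log2(RPKM + 1) scale, against 0. Mag, Gal3st1 and Egr2 had under 10 estimated reads in at least 1 sacral sample, and counting error is large for those values.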

Other observations

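The fibroblast and perineurial list had its smallest p for Lum, a proteoglycan gene, at -0.37 ± 0.172 (adjusted p = 0.331). The endothelial list had it for Pecam1, at -0.35 ± 0.276 (adjusted p = 0.626), and the macrophage list for Itgam, at 0.56 ± 0.357 (adjusted p = 0.529). None of these 3 was called. Among large myelinated neuron genes, Spp1, Ntrk3 and Nefm were called lower beside Nefh, at -0.70 ± 0.186, -0.53 ± 0.0930 and -0.52 ± 0.110. Under the fixed mouse block Spp1 (limma, adjusted p = 0.156) and Nefm (adjusted p = 0.0868) were not called, and leaving out 1 sample ended the call of Spp1 for 16 of the 24 samples. Among small unmyelinated neuron genes, Gfra3, Tac1 and Calca were called higher beside Trpv1, at 1.10 ± 0.158, 0.98 ± 0.0897 and 0.44 ± 0.0874. Over all mice, library size differed between levels by -1.28 M reads ± 4.22 (SD, n = 11; exact two-sided sign-flip permutation p = 0.334).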
